A study of Drosophila melanogaster with 28 samples.

Results

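The transcripts described here are the 200 of fly testis with the fewest ribosome footprints for the RNA they had. They were chosen by their measured values in 4 wild-type (WT) testis libraries, as those with the lowest ratio of footprints to RNA-seq among the 7594 transcripts that had a mean of at least 20 CPM (a transcript's count as a share of the library's total, scaled so that each library sums to 1e6) in RNA-seq. The ratio was (footprint CPM + 1) / (RNA-seq CPM + 1), from the means of 2 libraries each. Before that, a transcript whose summed count lay within 5% of the transcript kept before it in the file was dropped, which left 18851 of the 30340 transcripts with a number in the files' second column. The 200 members fell into 156 groups of near-equal counts, since listed isoforms of 1 gene can carry the same reads. Of the members, 126 stood alone and 74 shared 30 groups.

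In ribosome profiling, mRNA is digested and the pieces shielded by ribosomes, called footprints, are sequenced, and RNA-seq measures the mRNA itself. Their ratio is used as a measure of how densely a transcript is translated. In spermatogenesis, transcription largely stops around meiosis, and many mRNAs are kept untranslated in spermatocytes and used later, when the spermatids elongate and build the sperm tail and compact the nucleus. Reading frames upstream of the main one and retention in the nucleus are other known ways in which an mRNA comes to carry few ribosomes.

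The study compared males with a knockout (KO) of Mettl1, the catalytic subunit of the enzyme that places m7G on tRNA, with WT males of the strain y1 w1118. Testes came from adults of 2 to 3 days, pooled at 600 pairs a sample and dissected with cycloheximide at 100 µg/ml, and the labels' protocol names the allele Mettl1KO1. There were 28 libraries in 14 groups of 2 replicates. Testis set 1 and testis set 2 each held KO footprints, KO RNA-seq, WT footprints and WT RNA-seq. Body samples held footprints and RNA-seq of 2 knockout lines, KO1 and KO2, and of WT; the allele of line KO2 and the way bodies were collected are not given in the sources used here. The digit after the genotype in the testis titles was read as the replicate number and may instead name a line. The labels do not say how the replicates of a group were separated, so p-values measure the spread between these samples, which may be technical.

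A footprint library held 410019 to 3386070 counts (set 1), 6732034 to 13217075 counts (set 2) or 2033209 to 9936190 counts (body). An RNA-seq library held 11486631 to 17707128 counts (set 1), 149745 to 209202 counts (set 2) or 49608 to 95749 counts (body). Across the 18851 transcripts kept, which are not independent, the WT footprints of the 2 testis sets ranked alike (Spearman rho 0.962). Their WT RNA-seq did so less (0.497). The files give FlyBase transcript identifiers without gene names. A reference table paired 1 of the 200 members with symbols, so members are named by identifier, and the Mettl1 transcript, tissue markers and lists of spermatogenesis genes were not analysed here. In these bulk samples, fewer cells of a type and less RNA per cell cannot be told apart.

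In the WT libraries of set 1 that chose them, the members had a median of 8.17 footprint CPM (0 to 322) and a median of 79.1 RNA-seq CPM (21.4 to 2620). Their ratios ran over 0.0045 to 0.195 with a median of 0.132, against a median of 0.827 over all 7594 transcripts. These values are the rule itself and were not tested. The limit was not a gap in the data. The last 3 members inside it, FBtr0076857, FBtr0077513 and FBtr0079575, had ratios of 0.1945, 0.1948 and 0.1950, and the first 3 outside it, FBtr0302984, FBtr0071880 and FBtr0343222, had 0.1951, 0.1951 and 0.1954. The second column, a number per transcript of unstated unit that was used as a length, had a median of 539.5 in the members (47 to 3722) and of 494.5 in all 7594. Scaled by that number, the median RNA-seq level was 162 CPM per 1000 in the members and 130 CPM per 1000 in all 7594.

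**Figure D1:**
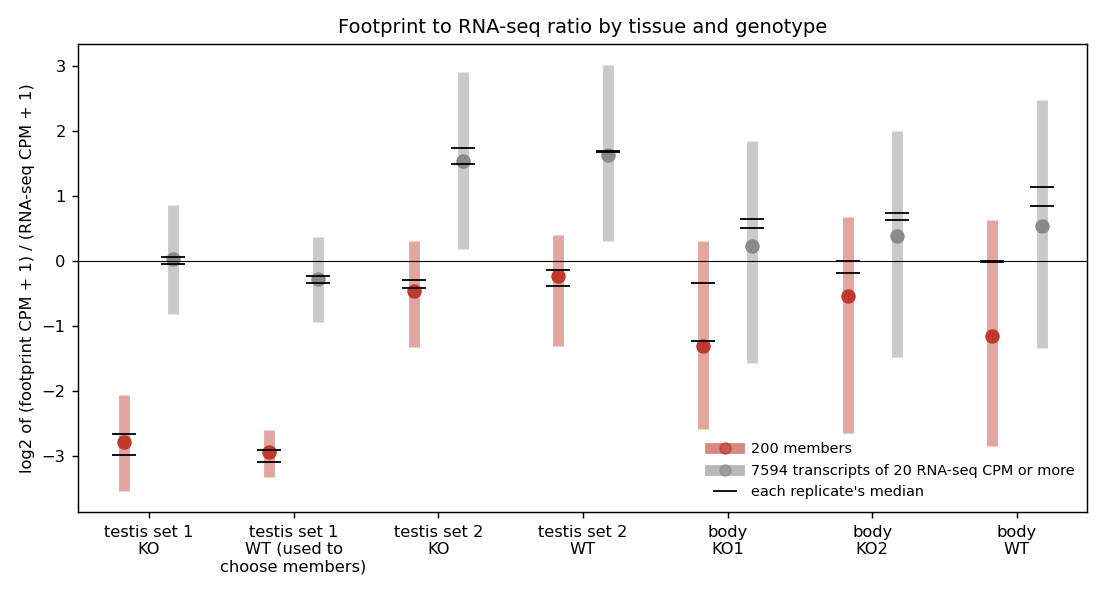
Log2 of (footprint CPM + 1) / (RNA-seq CPM + 1) in 7 conditions for the 200 members (red) and all 7594 transcripts (grey); dots are medians of the ratio of mean CPM, thick bars run from the lower to the upper quartile and dashes give each replicate's median. In set 1 the members' medians were -2.78 in KO and -2.93 in WT, and in set 2 and body the bars of members and of all transcripts overlapped more.

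The low ratio carried over to the KO testes of the same set. In set 1 KO, which the choice did not use, the members' median log2 ratio was -2.78, against 0.04 over all 7594. All 200 members lay below that overall median and 166 lay in the lowest 10%. In set 2, the members' median was -0.45 in KO and -0.23 in WT, while the medians over all 7594 transcripts were 1.55 in KO and 1.63 in WT. Below the overall median lay 186 members in KO and 189 in WT, but only 56 in KO and 60 in WT were in the lowest 10%. In body the members' medians were -1.30 in KO1, -0.53 in KO2 and -1.14 in WT, against 0.23, 0.38 and 0.55 over all transcripts. RNA-seq of body was shallow: 37 members in KO1, 63 in KO2 and 62 in WT had no RNA-seq count there, and the difference between members and all transcripts in WT, -1.69 with all libraries, was -1.12 without WT RNA-seq replicate 1 and -0.98 without replicate 2.

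Tested library against library in set 1 KO, footprints were lower than RNA-seq for 198 of the 200 members in edgeR's quasi-likelihood test, adjusted by Benjamini-Hochberg over 14915 transcripts. Over all transcripts tested, 43.6% were called in either direction, 20.1% higher and 23.5% lower, and no member was called higher. Among the 7592 tested transcripts of 20 RNA-seq CPM or more, 56.8% were called, 20.7% higher and 36.1% lower. All 200 members had a log2 change below 0. The members' median log2 change, footprints over RNA-seq, was -3.14, against -0.00 over all transcripts and -0.28 over the 7592. With a change of 4-fold or more, 172 members were called, and the share of all transcripts at that limit was not computed. The counts behind the low side were small, since 53 members had at least 10 counts in each KO footprint library. The 2 members that were not called were FBtr0081141 (-1.01 ± 0.41 SE, adjusted p = 0.0917) and FBtr0080408 (-0.88 ± 0.53 SE, adjusted p = 0.223), named after their values were seen. In both, RNA-seq was lower in KO than in WT: FBtr0081141 had 7.74 and 7.78 CPM in KO and 22.1 and 25.8 CPM in WT, and FBtr0080408 had 6.83 and 7.85 CPM in KO and 24.99 and 24.59 CPM in WT.

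In set 2 the same comparison split the members. Those called higher go against the description as poorly translated where the change is read against 0. The median change over the 7593 tested transcripts of 20 RNA-seq CPM or more was itself 1.74 in KO and 1.86 in WT. Above the overall median ratio lay 14 members in KO and 11 in WT. In KO, 49 members were called lower and 17 higher in footprints than in RNA-seq, where 59.4% of 15793 transcripts were called in either direction, 21.1% lower and 38.2% higher. In WT, 45 were called lower and 13 higher, where 57.6% of all were called in either direction, 19.0% lower and 38.7% higher. The share of members called lower in WT, 22.5%, was near that of all transcripts tested, while the share called higher, 6.50%, lay under it. Among the 7593 of the 7594 transcripts that were tested, 9.71% were called lower and 60.8% higher in WT. Against these, which met the same RNA-seq minimum, members were called lower more often and higher less often. The members' median change was -0.33 in KO and -0.12 in WT, against 0.98 and 1.32 over all transcripts tested. Only 39 members in KO and 37 in WT had at least 10 counts in each RNA-seq library. These are fewer than the members called, so some calls rested on fewer RNA-seq counts. The WT count of 58 moved to 38 without WT footprint replicate 1, to 37 without WT RNA-seq replicate 1 and to 35 without WT RNA-seq replicate 2, and the KO count of 66 moved to 40 without KO RNA-seq replicate 1.

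WT footprints themselves were higher in set 2 than in set 1 for 179 members (89.5%), against 60.2% of all 7594 transcripts, with a median log2 difference of 0.81 in members and 0.13 in all. The members were chosen for low footprints in set 1, so the choice itself favours a difference in this direction, and no test was made of it.

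The 10 members with the lowest ratios came from 7 groups of near-equal counts. FBtr0301365, the lowest of all, had footprints of 0 and 0.895 CPM in KO and 0.295 and 0 CPM in WT of set 1, which is 1 count in each genotype. Its RNA-seq there was at 225 and 222 CPM in KO and 252 and 256 CPM in WT. In set 2 its footprints were 2.50 and 0.659 CPM in KO and 4.62 and 13.8 CPM in WT, so they were low in both sets but not absent. The set 2 WT libraries differed from each other here: for the 10 lowest members, replicate 2 was 1.67 to 3.01 times replicate 1.

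FBtr0074329 had no footprint count in any of the 4 set 1 libraries. Its RNA-seq was at 117 and 123 CPM in KO and 70.6 and 68.7 CPM in WT of set 1. Against a floor of 3 counts over each genotype's footprint libraries, RNA-seq was at least 61.0-fold higher than footprints in KO and at least 97.3-fold higher in WT. In body it had no footprint count in either KO line and 0 and 0.101 CPM in WT, beside RNA-seq of 467 and 407 CPM in KO1, 410 and 508 CPM in KO2 and 351 and 564 CPM in WT. Set 2 testis footprints were 1.85 and 0.791 CPM in KO and 2.35 and 5.94 CPM in WT. Its set 2 RNA-seq rested on 5 and 0 counts in KO and 7 and 1 counts in WT. In WT these were 39.0 and 6.26 CPM, so the deficit there was not clear in every replicate.

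FBtr0309798 was low in footprints wherever it was measured. Its testis footprints were 0 and 0.895 CPM in KO and 0.591 and 1.24 CPM in WT of set 1, and 0.978 and 0.791 CPM in KO and 1.51 and 2.53 CPM in WT of set 2. RNA-seq was 112 and 107 CPM in KO and 91.6 and 97.0 CPM in WT of set 1, and 363 and 287 CPM in KO and 301 and 269 CPM in WT of set 2. No footprint library reached the level of any RNA-seq library. The change, footprints over RNA-seq, was -8.33 ± 0.34 (SE) in set 2 KO and -7.05 ± 0.32 in set 2 WT on the log2 scale, both called by edgeR's quasi-likelihood test.

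Of the lowest 10, 3 listed transcripts, FBtr0343142, FBtr0343137 and FBtr0343140, shared 1 group and count as 1 observation. FBtr0343142 had 19.5 and 21.5 footprint CPM in KO and 3.25 and 6.21 CPM in WT of set 1, beside 427 and 435 RNA-seq CPM in KO and 240 and 251 CPM in WT. In set 2 its footprints were 35.6 and 19.2 CPM in KO and 24.4 and 58.7 CPM in WT, and the genotypes overlapped. Its mean RNA-seq there was only 1.88 times its mean footprints in KO and 1.14 times in WT. That RNA-seq rested on 9 and 9 counts in KO and 8 and 8 counts in WT. FBtr0082542 and FBtr0082543 were also 1 group. FBtr0082542 had 7.32 and 1.79 footprint CPM in KO and 0.886 and 0 CPM in WT of set 1, beside 353 and 319 RNA-seq CPM in KO and 244 and 241 CPM in WT. FBtr0333628, with 0 to 1.79 footprint CPM in the set 1 libraries, and FBtr0332758, with 0 to 4.48 CPM, completed the 10.

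**Figure D2:**
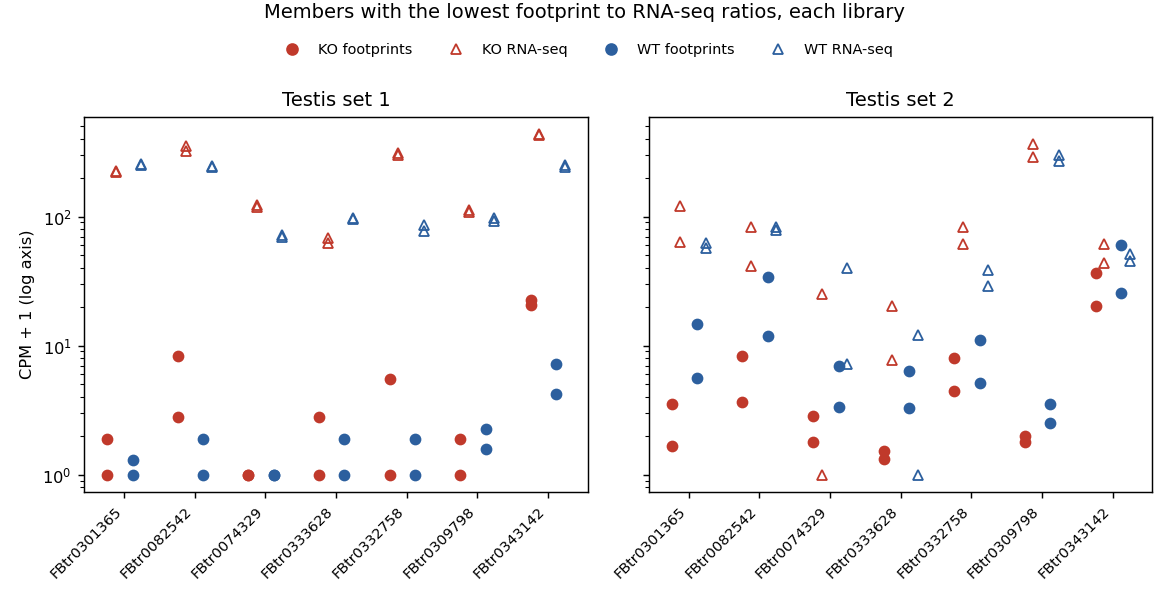
CPM + 1 on a log axis in each testis library for 1 transcript of each of the 7 groups that hold the 10 lowest ratios; circles are footprints, triangles RNA-seq, red KO and blue WT, with set 1 left and set 2 right. In set 1 the triangles stand far above the circles for every transcript, and in set 2 the gap is widest for FBtr0309798.

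Across conditions, 31 members lay in the lowest 10% of all 7594 transcripts in set 1 KO, set 2 KO and set 2 WT alike, and 177 lay below the median in all 3. Of all members, 9 in as many groups, singled out after their values were seen, lay in the lowest 10% in all 6 conditions that the choice did not use: FBtr0074329, FBtr0309798, FBtr0081152, FBtr0071680, FBtr0082326, FBtr0331700, FBtr0305313, FBtr0345038 and FBtr0078579. The shares of all 7594 transcripts that met these joint limits were not computed, so the counts of 31, 177 and 9 have no background here. FBtr0305313 had footprints of 2.82 and 2.64 CPM in KO and 5.30 and 3.86 CPM in WT of set 2, beside RNA-seq of 712 and 695 CPM in KO and 1700 and 1908 CPM in WT. Its set 1 RNA-seq was far lower, at 24.7 and 22.5 CPM in KO and 22.6 and 20.2 CPM in WT. FBtr0331700 had body footprints of 2.17 to 4.23 CPM over the 6 libraries, beside body RNA-seq of 2087 and 2402 CPM in KO1, 2100 and 1849 CPM in KO2 and 2242 and 2157 CPM in WT. In these samples every footprint value of both transcripts lay below every RNA-seq value.

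FBtr0071680 is the 1 member that the reference table paired with symbols. It carries PIG-M, named for the human mannosyltransferase that builds the GPI anchor of cell-surface proteins, as its main reading frame, and 3 upstream frames that are listed as CG42379, CG42380 and CG42381. Its footprints were 0 and 4.48 CPM in KO and 3.84 and 2.48 CPM in WT of set 1, and 5.65 and 2.90 CPM in KO and 7.11 and 8.62 CPM in WT of set 2. RNA-seq was higher than this in every set 1 library, at 83.4 and 83.8 CPM in KO and 59.0 and 62.8 CPM in WT. In set 2 its mean RNA-seq was 7.15 times its mean footprints in KO and 2.52 times in WT. That RNA-seq rested on 10 and 2 counts in KO and 6 and 1 counts in WT. The set 1 KO change, footprints over RNA-seq, was -4.99 ± 0.47 (SE, edgeR's quasi-likelihood test, adjusted p = 0.00105). Which of the 4 frames the counts cover is not given in the sources used here.

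At the other end, 2 members lay above the overall median ratio in both genotypes of set 2, FBtr0343266 and FBtr0306916, again singled out after their values were seen. FBtr0306916 had 34.1 and 27.8 footprint CPM in KO and 9.45 and 7.45 CPM in WT of set 1, beside 47.4 and 48.1 RNA-seq CPM in KO and 53.0 and 54.2 CPM in WT. In set 2 it had 70.4 and 57.2 footprint CPM in KO and 27.8 and 35.4 CPM in WT, with 1 RNA-seq count in KO and none in WT. Its set 2 ratio therefore rested on RNA-seq at or near 0.

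The members with the most counts also carried footprints. FBtr0079937 had the most counts of both kinds in set 1 WT, with footprints of 278 and 406 CPM in KO and 306 and 339 CPM in WT and RNA-seq of 3628 and 3682 CPM in KO and 2664 and 2577 CPM in WT. In set 2 its footprints were 545 and 440 CPM in KO and 394 and 463 CPM in WT. Its set 2 RNA-seq was 239 and 274 CPM in KO and 162 and 188 CPM in WT, below its footprints there. Read against 0, the change, footprints over RNA-seq, accordingly ran in opposite directions in the 2 sets. By edgeR's quasi-likelihood test it was -3.72 ± 0.35 (SE) in set 1 KO (adjusted p = 0.00105). By the same test it was 1.10 ± 0.21 in set 2 KO (adjusted p = 0.000192) and 1.46 ± 0.23 in set 2 WT (adjusted p = 2.18e-05). Over the tested transcripts that met the RNA-seq minimum of the choice, the median change was -0.28 in set 1 KO. In set 2 that median was 1.74 in KO and 1.86 in WT. FBtr0079937 thus lay below the median of such transcripts in each of these comparisons. Between the sets, its mean WT footprints were 1.33 times as high in set 2 as in set 1, and its mean WT RNA-seq was 15.0 times as high in set 1 as in set 2.

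FBtr0085586, FBtr0076235, FBtr0077513 and FBtr0290079 were the next in set 2 WT footprints, at 135 to 271 CPM. Their set 1 WT RNA-seq was 475 to 1109 CPM. Of these 4 only FBtr0077513 was called higher in footprints than in RNA-seq in set 2 WT (0.73 ± 0.26 SE, edgeR's quasi-likelihood test, adjusted p = 0.0225).

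Loss of Mettl1 was compared in the footprints of set 2, where 199 members were tested. Of these, 30 rose and 35 fell in KO, in 24 and 31 groups of near-equal counts, in edgeR's quasi-likelihood test, adjusted by Benjamini-Hochberg over 15254 transcripts. The background was 24.3% called in either direction, 10% higher and 14.3% lower. The members' shares, 15.1% higher and 17.6% lower, were near it, and among the 7593 transcripts of 20 RNA-seq CPM or more that were tested 12.4% rose and 21.2% fell. The members' median change was -0.18, against 0.01 over all transcripts. Of the called members, 2 were at least 4-fold higher and 13 at least 4-fold lower. The shares of all transcripts at these limits were not computed, so the 2 counts have no background here. The WT libraries decided part of the count, which was 42 (12 higher, 30 lower) without WT replicate 1 and 39 (24 higher, 15 lower) without WT replicate 2. The members' WT replicates stood apart, with a median log2 of 0.27 for replicate 2 over replicate 1, against -0.06 over all 7594 transcripts, and 15 members more than 2-fold higher in replicate 2 and 0 lower.

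**Figure D3:**
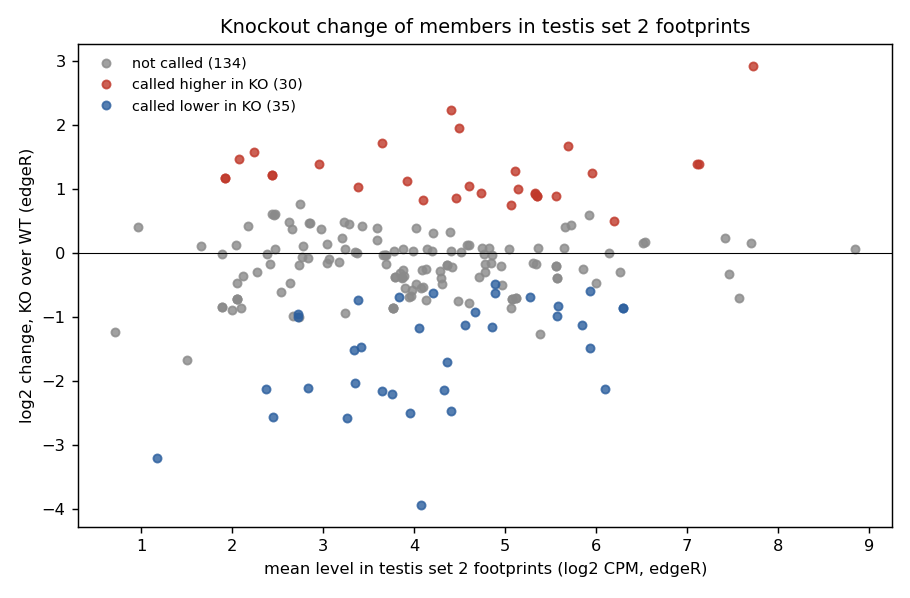
Log2 change in testis set 2 footprints, KO over WT, against mean level for the 199 members tested by edgeR; red marks the 30 called higher in KO, blue the 35 called lower and grey the rest. Called members lie on both sides of 0, and FBtr0077468 is the point at the upper right, 2.92 above 0.

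FBtr0077468 rose most. Its footprints were 372 and 407 CPM in KO and 49.5 and 43.8 CPM in WT of set 2, a log2 change of 2.92 ± 0.11 (SE, edgeR's quasi-likelihood test, adjusted p = 0.000182). RNA-seq of set 2 was 253 and 341 CPM in KO and 173 and 144 CPM in WT, a change of 0.90 ± 0.27 (adjusted p = 0.0402), so footprints moved further than RNA. The test of that difference, the interaction of assay and genotype that measures translational efficiency, gave 2.16 ± 0.33 (adjusted p = 0.000796 by edgeR). In set 1, which chose the members and was not tested, footprints were 522 and 678 CPM in KO and 88.3 and 60.8 CPM in WT.

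FBtr0076430 came next, with 37.0 and 35.5 footprint CPM in KO and 6.58 and 7.58 CPM in WT of set 2 (2.23 ± 0.15 SE, edgeR's quasi-likelihood test, adjusted p = 0.000341). In set 1 its RNA-seq was also higher in KO, at 173 and 152 CPM, against 44.2 and 54.9 CPM in WT. FBtr0078579 fell most, to 2.50 and 1.71 footprint CPM in KO, against 28.4 and 31.6 CPM in WT of set 2 (-3.94 ± 0.22 SE, adjusted p = 0.000237 by edgeR). Its set 2 RNA-seq also fell, to 531 and 381 CPM in KO, against 1003 and 970 CPM in WT (-1.08 ± 0.20, adjusted p = 0.0054 by edgeR), and its translational efficiency changed by -2.71 ± 0.34 (adjusted p = 0.000118). In set 1 the RNA-seq of FBtr0078579 was 63.5 and 63.1 CPM in KO and 65.7 and 71.3 CPM in WT, a far lower level than in set 2. Among called members with a mean log2 CPM of 3 or more, FBtr0078431 followed, with 3.37 and 2.24 footprint CPM in KO and 14.0 and 17.1 CPM in WT of set 2 (-2.58 ± 0.26 SE, adjusted p = 0.00104 by edgeR). Its set 1 RNA-seq was lower in KO too, at 30.3 and 32.9 CPM, against 89.0 and 93.6 CPM in WT. Neither FBtr0076430 nor FBtr0078431 had enough set 2 RNA-seq to be tested for genotype. KO and WT footprint values that did not overlap in set 2 were a condition for naming these 4, so that separation is no separate result.

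**Figure D4:**
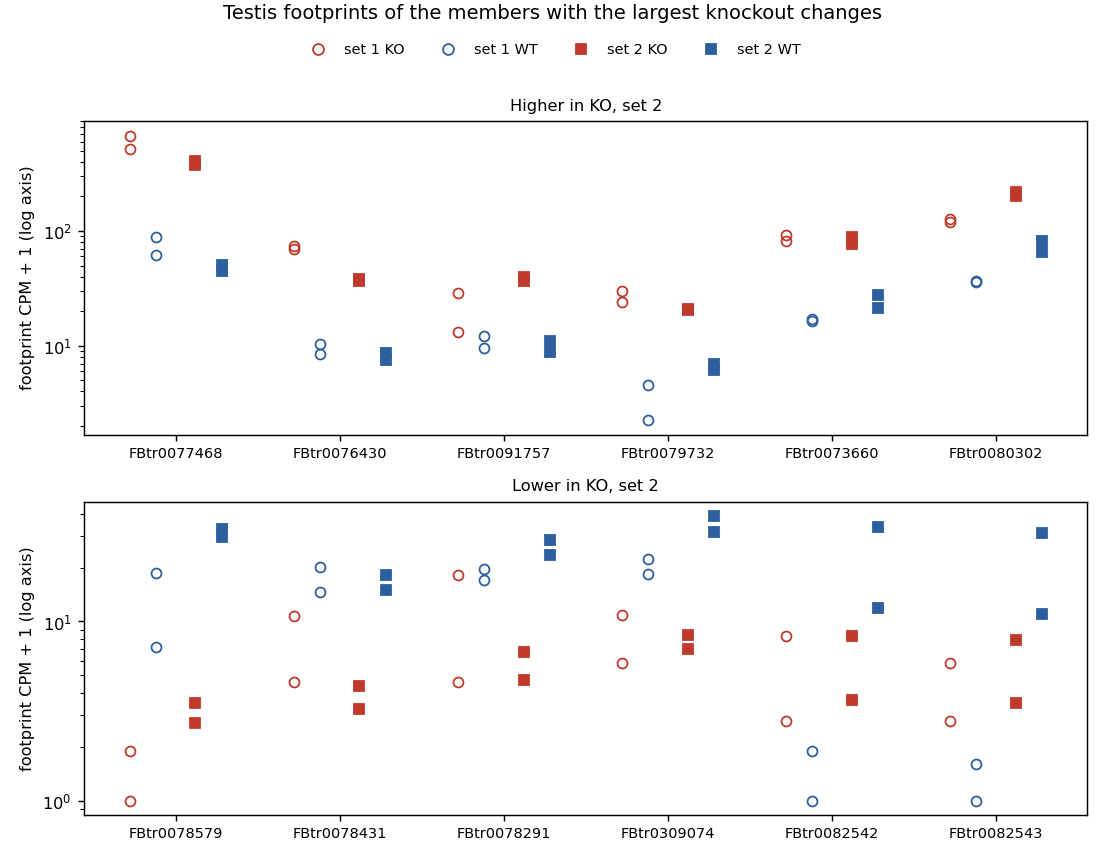
Footprint CPM + 1 on a log axis in each testis library for the 6 members that rose most (upper panel) and the 6 that fell most (lower panel) in set 2. They were taken from called members with a mean log2 CPM of 3 or more and no overlap of KO and WT values in set 2. Open circles are set 1, filled squares set 2, red KO and blue WT. The upper 6 stand higher in KO in both sets, while FBtr0082542 and FBtr0082543 stand lower in KO in set 2 and higher in KO in set 1, where they had few counts.

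The set 1 libraries give a second reading of the genotypes, with the limit that the choice of members used their WT libraries. Of the 30 members that rose in set 2, 28 had both set 1 KO footprint values above both WT values and 0 had them below, while 63.0% of all transcripts that rose in set 2 had them above. Of the 35 that fell in set 2, 14 had both set 1 KO values below both WT values and 6 had them above, while 61.0% of all transcripts that fell had them below. Over the 10463 transcripts with enough set 1 footprints, 39.7% had both KO values above and 20.9% below. The members were chosen for low WT footprints in set 1, so the choice itself favours KO values above WT there. In set 1 RNA-seq, 119 members had both KO values above both WT values and 61 had them below, where 26.8% of 15585 transcripts were above and 52.0% below, with a median log2 change of 0.33 over the 200. The set 1 footprint change had a median of 0.43 over the 111 members with enough counts to be fitted. No test was made on set 1.

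RNA-seq of set 2 was deep enough to test 51 members for genotype. Of these, 3 rose, FBtr0077468, FBtr0081141 and FBtr0331700, and 2 fell, FBtr0078579 and FBtr0305313, where 20.3% of 2969 transcripts were called in either direction, 10.1% higher and 10.2% lower. FBtr0081141 had 225 and 234 CPM in KO and 89.2 and 81.3 CPM in WT of set 2 (1.43 ± 0.31 SE, edgeR's quasi-likelihood test, adjusted p = 0.00955), the opposite order to its set 1 values given above. The count was 9 without KO replicate 2 and 3 without WT replicate 2, and by DESeq2 it was 2.

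Translational efficiency in set 2 changed for 7 of 200 members, against 3.52% of 15793 transcripts in either direction, 1.73% higher and 1.79% lower, so the members' 3.50% was close to the background. FBtr0077468, FBtr0079732 and FBtr0080301 rose, and FBtr0078579, FBtr0081141, FBtr0331700 and FBtr0085568 fell. FBtr0085568 had 31.1 and 22.1 footprint CPM in KO and 103 and 109 CPM in WT of set 2, with RNA-seq at 66.9 and 60.1 CPM in KO and 72.5 and 50.1 CPM in WT, and its efficiency changed by -2.05 ± 0.50 (SE, adjusted p = 0.0265 by edgeR). The count of 7 became 3 without KO RNA-seq replicate 1, 3 without WT RNA-seq replicate 1 and 4 without WT RNA-seq replicate 2, and by DESeq2 it was 14.

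In body, 127 members had enough footprints to be tested. In KO1, 2 rose and 1 fell, where 3.15% of 13840 transcripts were called in either direction, 1.02% higher and 2.13% lower. In KO2, 3 rose and 2 fell, where 4.57% were called in either direction, 1.71% higher and 2.86% lower. The lines share their WT libraries. FBtr0087560 had 108 and 52.8 footprint CPM in KO1, 52.0 and 63.9 CPM in KO2 and 14.9 and 12.3 CPM in WT, a log2 change of 2.61 ± 0.29 in KO1 and 2.14 ± 0.29 in KO2 (SE, edgeR's quasi-likelihood test, adjusted p = 0.000371 and 0.000843). Its body RNA-seq was 773 and 439 CPM in KO1, 597 and 906 CPM in KO2 and 33.5 and 60.5 CPM in WT. RNA and footprints were thus both higher in the knockout lines. The WT RNA-seq values rested on 2 and 3 counts, and the RNA-seq change was not tested.

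FBtr0077468, called higher in both lines, had 11.6 and 9.59 footprint CPM in KO1, 8.11 and 16.2 CPM in KO2 and 2.71 and 3.22 CPM in WT of body, a log2 change of 1.85 ± 0.35 in KO1 and 1.88 ± 0.36 in KO2 (SE). FBtr0078431, called lower in both lines, had 0.596 and 0.685 CPM in KO1, 0 and 0.492 CPM in KO2 and 3.52 and 4.13 CPM in WT. Both thus went the same way as in set 2 testis. FBtr0085586 was called lower in KO2, at 3.08 and 2.95 CPM, against 6.77 and 10.1 CPM in WT. FBtr0343266 was called higher in KO2, at 334 and 166 CPM, against 8.67 and 10.2 CPM in WT (4.77 ± 0.93 SE, adjusted p = 0.0106 by edgeR). In set 2 testis it was also called higher in KO footprints, at 5.87 and 6.59 CPM in KO and 1.59 and 2.67 CPM in WT (1.47 ± 0.33 SE, adjusted p = 0.0233 by edgeR). In body KO1 it had 177 CPM in replicate 1 and 7.31 CPM in replicate 2, so those replicates lay on either side of WT, and KO1 was not called (3.26 ± 0.91 SE, edgeR's quasi-likelihood test, adjusted p = 0.0823). The KO1 count of 3 fell to 1 without KO1 replicate 1, without WT replicate 1 or without WT replicate 2. The KO2 calls also changed when either WT replicate was left out.

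Most members had more footprints in testis than in body. In WT testis of set 2 against WT body, 141 of 199 members were higher and 15 lower in testis in edgeR's quasi-likelihood test, adjusted by Benjamini-Hochberg. Over 16284 transcripts, 82.2% were called in either direction, 40.5% higher and 41.7% lower, and among the 7593 tested transcripts of 20 RNA-seq CPM or more in testis 60.3% were higher and 24.8% lower. The members' shares were 70.9% higher and 7.54% lower. The choice required RNA-seq in testis, which itself favours higher footprints in testis, and the 7593 share that requirement. The members' median RNA-seq in set 1 WT was also higher, 79.1 CPM against 56.7 CPM in all 7594. How the choice as a whole bears on this comparison was not tested. The median log2 change was 1.78 in members, 0.97 in the 7593 and -0.04 in all. Of the called members, 90 were at least 4-fold higher in testis and 6 at least 4-fold lower, again without a computed share of all transcripts.

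FBtr0335464 had 4.69 and 5.35 footprint CPM in WT testis of set 2 and no count in WT body. Against the floor of 3 counts over the body libraries, 0.22 CPM, its testis level was at least 22.8-fold higher. FBtr0079937, the member with the most counts in set 1, had 394 and 463 CPM in testis and 10.8 and 14.2 CPM in body (4.75 ± 0.21 SE, adjusted p = 8.0e-13 by edgeR). The 3 members with the strongest body bias, FBtr0304687, FBtr0304685 and FBtr0304686, form 1 group. FBtr0304687 had 2.57 and 4.46 CPM in testis and 26.8 and 40.5 CPM in body (-3.69 ± 0.25 SE, adjusted p = 2.13e-10 by edgeR). In each of these the testis and body values did not overlap.

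**Figure D5:**
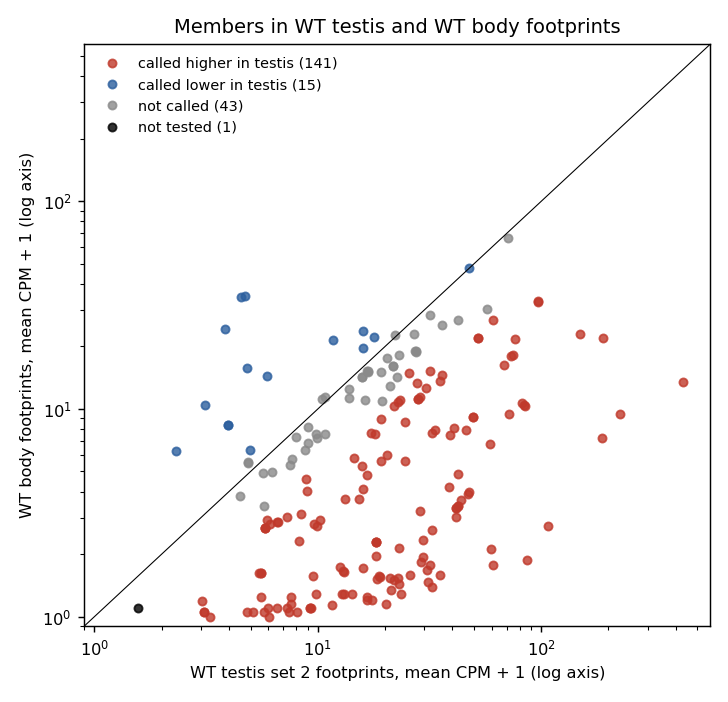
Mean footprint CPM + 1 in WT testis of set 2 (horizontal, log axis) and in WT body (vertical, log axis) for the 200 members; the line marks equal levels. Red points, 141 called higher in testis, lie below the line, and 15 blue points, called lower in testis, lie mostly above it.

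By the length number of the second column the members ran from 47 (FBtr0309074) to 3722 (FBtr0085505). FBtr0309074 had 7.39 and 6.06 footprint CPM in KO and 30.6 and 37.9 CPM in WT of set 2, one of the largest falls (-2.47 ± 0.19 SE, edgeR's quasi-likelihood test, adjusted p = 0.000442). FBtr0085505 had 61.3 and 49.95 CPM in KO and 55.6 and 85.6 CPM in WT of set 2, and the genotypes overlapped. Its RNA-seq was 518 and 483 CPM in KO and 659 and 729 CPM in WT of set 1. The other long members, FBtr0330145 and FBtr0071603, with lengths of 3252 and 3189, were not called for genotype in set 2 footprints.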

How the data were processed

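The deposited files give, for each of 28 libraries, whole-number counts per listed FlyBase transcript, not normalized by the authors. The submitters' processing notes name CASAVA 1.8, STAR 2.7.0a and dm6 without their roles; the counting tool, its use of strand and of reads shared by isoforms, and the annotation release are not given in the sources used here. Counts of isoforms and of overlapping or antisense genes are therefore uncertain. Per the labels' protocols, RNA-seq libraries came from a SEQuoia Express kit, and footprints carried ligated linkers and were amplified as RNA. The second column of the deposited files is 1 number per transcript, the same in every file, in an unstated unit, taken as a length only. Of 34703 transcripts listed, 4363 had no such number and 0 counts and were left out.

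CPM used each library's total over the 18851 transcripts kept. Members were grouped where they lay within 50 lines and a distance of 0.1 in count profile. Tests ran on the counts over all kept transcripts with edgeR 4.0.16 in R 4.3.3 (TMM scaling, filterByExpr with a minimum count of 10, quasi-likelihood F-test, Benjamini-Hochberg adjustment), with calls at an adjusted p under 0.05. Changes from edgeR are on the log2 scale, with standard errors. The pipeline was tested on simulated data. Set 2 assays were fitted in 1 model of 8 libraries, body footprints in 1 model of 6, and the other comparisons from their own 4 libraries. Set 1 KO against WT was not tested, because its WT libraries chose the members. Floors of 3 counts cover counting error only.

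Alternatives were DESeq2 1.42.0 and its size factors, no filter, transcripts not dropped for near-equal counts, other fits, a pseudocount of 0.5 or 5 CPM, a replicate block, and leaving out each library. Members and lists were chosen with earlier results of these data known. Members were named by fixed ranks: RNA-seq level, lowest ratio, largest knockout change at a mean log2 CPM of 3 or more, the limit, set 2 footprints, tissue change and length. The knockout changes were taken only from called members whose KO and WT footprint values did not overlap in set 2. Replicate numbers are not stated to pair libraries, and their deviations did not deviate together in every pair.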

Additional observations from a re-analysis of the deposited data

Results flagged for a closer look

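FBtr0082542 and FBtr0082543, which share 1 group of near-equal counts, went opposite ways by genotype in different samples. On log2 of (CPM + 1), KO against WT, the footprint change of FBtr0082542 was 1.94 in set 1, 0.85 in body KO1 and 0.80 in body KO2, but -1.94 in set 2. For FBtr0082543 it was 1.74 in set 1, 0.64 in body KO1 and 0.58 in body KO2, but -1.89 in set 2. In each comparison both KO values lay beyond both WT values, which was a condition of the flag. The differences between sets and tissues were not tested. Set 1 footprints of FBtr0082542 rested on 3 and 2 counts in KO and 3 and 0 counts in WT, and the WT ones chose it as a member. The set 2 call itself (adjusted p = 0.048 by edgeR) was lost without WT replicate 2 (adjusted p = 0.217) and by DESeq2 (adjusted p = 0.1003).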

How the results depend on the processing

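Of 146 recomputed summary values, 112 stayed within 1.5 times the count, within 1 SD of the value or, for length, near it. The other 34 moved. None of the medians changed sign, and the counts of members and the length could not. Single members were recomputed in 3 comparisons: 20 between assays in set 1 KO, 12 for genotype in set 2 footprints and 6 between testis and body. Of their 400 values, 4 lost their call, FBtr0082542 and FBtr0082543 in set 2 footprints without WT replicate 2 and by DESeq2. DESeq2 called 2 members in place of 5 in set 2 RNA-seq and 14 in place of 7 in translational efficiency, and with no filter 6 in place of 3 were called in body KO1. With a pseudocount of 5 CPM the members' median log2 ratio minus that of all 7594 was -2.38 in set 1 KO, -1.66 in set 2 KO, -1.56 in set 2 WT, -0.61 in body KO2 and -1.15 in body WT, and with TMM-scaled CPM it was -1.20 in body KO2. Without dropping near-equal transcripts, the rule kept 114 of the 200 members. The members' median length was 1.09 times that of the 7594 and 1.30 times that of all transcripts with a count.

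Leaving out each library in turn gave 35 to 45 members called between assays in set 2 WT, 40 to 60 in set 2 KO, 39 to 71 for genotype in set 2 footprints, 3 to 9 in set 2 RNA-seq, 3 to 9 in translational efficiency, 1 to 2 in body KO1 and 0 to 5 in body KO2. The same gave a ratio difference of -2.10 to -1.69 in set 2 WT, -1.07 to -0.67 in body KO2 and -1.76 to -0.98 in body WT, and a median set 1 RNA-seq change of 0.30 to 0.42. Calls on single members of body KO2 thus also depended on 1 library, since all 5 were lost without WT replicate 2. With all libraries, 11 of the 127 members tested had an unadjusted p under 0.05 by edgeR in body KO2, where 2003 of all 13840 transcripts did.

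A replicate block gave 198 members between assays in set 1 KO, 50 in set 2 WT and 66 in set 2 KO, and for genotype 59 in set 2 footprints, 5 in set 2 RNA-seq, 7 in translational efficiency, 2 in body KO1 and 5 in body KO2. The replicate deviations of set 1 KO footprints and RNA-seq were negatively correlated (r = -0.738), as were those of set 2 KO and WT footprints (r = -0.352). Crossed replicate numbers, tried after the data were seen, gave 198 members in set 1 KO and 97 in set 2 footprints.

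Set 2 and body RNA-seq held too few counts to measure most members, so set 2 ratios and efficiencies rest on few RNA-seq counts. The 2 testis sets differed more in RNA-seq than in footprints, and the cause was not tested. Isoforms with shared reads count more than once, and without gene names no pathway was described.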

Other observations

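The reference table paired 9 of the 7594 transcripts with symbols of several reading frames on 1 transcript, a main frame and 1 or more upstream. FBtr0071680, the transcript of PIG-M, was the 1 member among them. These 9 were picked out after their ratios were seen. Their set 1 WT ratio had a median of 0.277 (0.0672 to 1.09), against 0.827 over all 7594, and 8 of the 9 lay below that overall median. FBtr0079037, which carries Tfb5, a subunit of the general transcription factor TFIIH, and CG31917, stood at rank 221, outside the 200, with 5.47 footprint CPM and 31.3 RNA-seq CPM. FBtr0082829, with CG42375 and CG9288, stood at rank 249, with 8.01 footprint CPM and 41.3 RNA-seq CPM. FBtr0074991 carries Mettl5, named for the human methyltransferase of 18S rRNA, and CG42374, and had 5.29 footprint CPM and 22.5 RNA-seq CPM. The 1 transcript above the median in set 1 WT, FBtr0076348 with vnc and CG42455, had 35.6 footprint CPM and 32.7 RNA-seq CPM. The low ratios did not all carry over to set 2 WT, where RNA-seq was shallow and the median log2 ratio over all 7594 was 1.63. Above it lay FBtr0082829 (1.92), FBtr0084211 (1.84), FBtr0076348 (2.03) and FBtr0086654 (2.66), and the others lay below it. No test was made of these 9.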
